A study of Mus musculus with 9 samples.

Results

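Transcript levels in N2A cells depleted of DDX1 were compared with those in cells given a scramble siRNA. N2A is a mouse neuroblastoma line. All cells received an siRNA with a lipid reagent, so the controls went through transfection too, and the labels name no other treatment. Scramble cells carry the label WT and siDDX1 cells the label DDX1 knockdown, with 3 RNA-seq libraries in each group, each from a separately seeded plate per the study's methods. A gene was a member when its mean over the 6 libraries of the siDDX1 table was at least 1 FPKM (fragments per kilobase of transcript, scaled to the mapped fragments of a library), which took in 11104 of the 24318 genes listed. Gm13544 (mean 1.00 FPKM) was just inside this limit, and Amz1 (0.997 FPKM) and 4930577N17Rik (just under 1 FPKM) were just outside it. The rule used no difference between the groups. The series also holds 3 siEXOSC3 libraries, whose values are set beside a few genes at the end.

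DDX1 is a DEAD-box protein, a family of enzymes that use ATP to unwind or remodel RNA. It is a subunit of the tRNA ligase complex, in which RTCB joins the exons of spliced tRNAs and of the mRNA of Xbp1, a factor of the unfolded protein response. DDX1 has also been described at R-loops, where RNA pairs with DNA, at double-strand breaks, and together with DDX21, DHX36 and TICAM1 in the sensing of double-stranded RNA. Neuroblastoma cells derive from the sympathetic lineage and express transcription factors and secretory proteins of that lineage.

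The libraries were checked against the label first. Of 14 neuroblastoma and neuronal markers 12 reached a mean of 1 FPKM, among them Hand2 (121 FPKM), Tubb3 (95.8 FPKM) and Chgb (132 FPKM). Th, the rate-limiting enzyme of catecholamine synthesis, had a mean of 0.333 FPKM. The summed marker level lay between 571 and 627 FPKM in scramble and between 571 and 635 FPKM in siDDX1 libraries. Of 22 markers of other cell types, 3 (Mbp, Pdgfrb and Pecam1) reached 1 FPKM. The summed level of all 22 was 10.9 to 12.6 FPKM in scramble and 13.9 to 15.7 FPKM in siDDX1 libraries, and Itgam, Aqp4, Col1a2, Krt5 and Krt14 were listed at 0 throughout. Pdgfrb was the marker of these 3 that passed the test (log2 fold change 0.45, limma adjusted p = 0.0149). In such bulk samples fewer cells of a kind and less RNA per cell cannot be told apart.

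SiDDX1 replicate 3 stood apart. Across genes its log2 values correlated at 0.986 and 0.990 with siDDX1 replicates 1 and 2, which correlated at 0.994 with each other, while scramble libraries correlated at 0.995 to 0.997. With scramble replicates 1, 2 and 3 it correlated at 0.989, 0.988 and 0.989. It was thus about as close to the controls as to its own group. Rmrp, a small noncoding RNA gene, took from 11.9 to 17.3% of the FPKM total of a library. Depth is unknown, because the tables give FPKM and no read numbers. Ribosomal RNA had been removed, and the nondirectional libraries do not separate the reads of overlapping genes.

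Below, values are given in the order of replicates 1, 2 and 3, and log2 fold changes are differences of log2(FPKM + 1), which understate the change of low genes. Tests are those of limma over all 11104 genes with Benjamini-Hochberg adjustment, and a gene is said to rise or fall where the adjusted p was under 0.05. By this measure 623 genes (5.61%) increased and 559 (5.03%) decreased, 10.6% in either direction, and 9922 did neither. The median log2 fold change of all genes was -0.0006. The groups did not overlap in 3857 genes (34.7%), with siDDX1 higher in 1885 (17%) and lower in 1972 (17.8%). A log2 fold change of 1 or more was reached by 18 increased genes and of -1 or less by 8 decreased genes. Only 13 of the increased genes had a scramble mean under 1 FPKM and 18 of the decreased genes a siDDX1 mean under 1 FPKM. Calls depended on single libraries. Without siDDX1 replicate 3, 1818 genes (16.4%) increased and 1709 (15.4%) decreased. List counts given below for that fit are to be read against these shares. Without scramble replicate 1 the counts were 103 (0.928%) and 61 (0.549%), and without scramble replicate 3 they were 96 (0.865%) and 67 (0.603%). In all 6 fits that leave out 1 library, 133 genes stayed past the threshold, 80 of them higher and 53 lower in siDDX1 cells.

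Ddx1 itself was lowered, and no other subunit of its complex passed the test. Ddx1 (chromosome 12 of mm9, from 13226114 to 13256019, minus strand) stood at 129.6, 126 and 119 FPKM in scramble and at 28.0, 28.7 and 34.8 FPKM in siDDX1 libraries. The groups were far apart, with 24.4% ± 2.99 (SD, n = 3) of the scramble mean left. The log2 difference was -2.01 with a standard error (SE) of 0.0873 (limma adjusted p = 9.53e-05). The exact permutation test of the same values, two-sided, gave p = 0.1, the smallest that 3 against 3 libraries allow. Rtcb, the ligase, stood at 111, 104 and 97.2 FPKM in scramble and at 124, 115 and 106 FPKM in siDDX1 libraries, which overlap (limma adjusted p = 0.252). Fam98a and Fam98b, 2 further subunits, had log2 fold changes of -0.13 and -0.08. Zbtb8os, which encodes the ligase's activator archease, was at 0.19 and 2700060E02Rik at 0.06. None of these 5 passed the test, and their limma adjusted p-values lay between 0.122 and 0.640. With a trend with GC content and transcript length removed from each library, 1 of the 6 genes increased past the threshold and 1 decreased. Of the partners of DDX1 in double-stranded RNA sensing, Ticam1, an adaptor of Toll-like receptor 3, rose from 2.25, 2.38 and 1.75 to 3.85, 4.27 and 3.03 FPKM (log2 fold change 0.59, limma adjusted p = 0.0281). This call was lost in 5 of the 6 fits without 1 library, with limma adjusted p-values up to 0.112. Ddx21 (0.07) and Dhx36 (-0.06) did not pass.

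The 15 largest rises began with Lcn2, Acox2 and Il6. Lcn2 encodes a lipocalin that binds bacterial siderophores and is a known acute-phase gene (chromosome 2 of mm9, from 32240153 to 32243317, minus strand). It was at 3.85, 3.46 and 3.54 FPKM in scramble and at 39.0, 34.7 and 21.7 FPKM in siDDX1 libraries, so the lowest siDDX1 value was still several times the highest scramble value. On the log2 scale it rose by 2.79 (SE 0.187, limma adjusted p = 0.00104). Acox2, a peroxisomal oxidase of branched fatty acids and bile acid intermediates, went from 1.42, 1.26 and 0.847 to 10.96, 8.54 and 5.59 FPKM. Il6, an inflammatory cytokine gene, went from 19.7, 16.4 and 17.6 to 49.9, 52.9 and 85.5 FPKM. For Il6 the highest value was that of siDDX1 replicate 3, whereas for Lcn2 and Acox2 that library was the lowest of the 3. Fetub, a secreted protease inhibitor of the cystatin superfamily, rose from 30.6, 33.2 and 28.1 to 86.1, 91.6 and 82.0 FPKM. The groups lie far apart, and the gene rose by 1.47 on the log2 scale (SE 0.0758, limma adjusted p = 1.90e-04). The other genes among the 15 largest rises were Iqcf5, Egr1, H2-M10.1, Pla2g2e, Ndufa4l2, Ndrg1, Hist1h4i, Serpinf1, Cd74, Otog and Cryba2, with log2 fold changes from 1.10 to 1.67. Hist1h4i and H2-M10.1 belong to multigene families whose members share reads, and their values are uncertain. Pla2g2e, a secreted phospholipase, went from 6.94, 7.32 and 6.34 to 25.1, 19.8 and 16.6 FPKM. Serpinf1, a secreted serpin, went from 3.997, 4.73 and 3.26 to 9.504, 9.58 and 10.8 FPKM. Of the 15 rises, 11 stayed past the threshold in all 6 fits without 1 library, and Ndufa4l2, Ndrg1 and Cd74 did so in 4 and Otog in 2, with limma adjusted p-values of up to 0.0682, 0.0711, 0.0610 and 0.0953.

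The 15 largest falls began with Ddx1, 2700038G22Rik and Nppb. The noncoding transcript 2700038G22Rik (chromosome 5) was at 22.0, 26.9 and 26.0 FPKM in scramble and at 7.49, 7.74 and 9.42 FPKM in siDDX1 libraries. Nppb, which encodes the precursor of a natriuretic peptide, fell from 4.79, 2.61 and 5.00 to 0.832, 1.26 and 0.418 FPKM. Ptgr1, a reductase of prostaglandins, fell from 4.41, 3.93 and 5.04 to 1.67, 1.46 and 1.41 FPKM. In all 3 the groups lie apart. Nppb and Hrct1 had siDDX1 means under 1 FPKM and were members only through the scramble group, in which they were high. Tnfrsf22 (-1.06) and Tnfrsf9 (-0.89), receptors of the tumour necrosis factor family, were among the 15 largest falls. So were Tinagl1 (-1.03), a matrix protein, Rnd2 (-0.99), a small GTPase of migrating neurons, and Hipk3 (-0.89), a protein kinase. Hipk3 went from 19.1, 17.6 and 18.7 FPKM to 8.29, 9.24 and 11.1 FPKM. Rab26os (-1.07), Lrrc2 (-1.04), Hrct1 (-0.98), Cxcl10 (-0.98), Isg15 (-0.93) and Zfp820 (-0.92) made up the rest. Nppb, Rab26os, Rnd2, Hrct1, Cxcl10 and Isg15 lost the call in 1 to 3 of the 6 fits without 1 library, with limma adjusted p-values of up to 0.0606, 0.0772, 0.0670, 0.0559, 0.0825 and 0.0685.

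**Figure D1:**
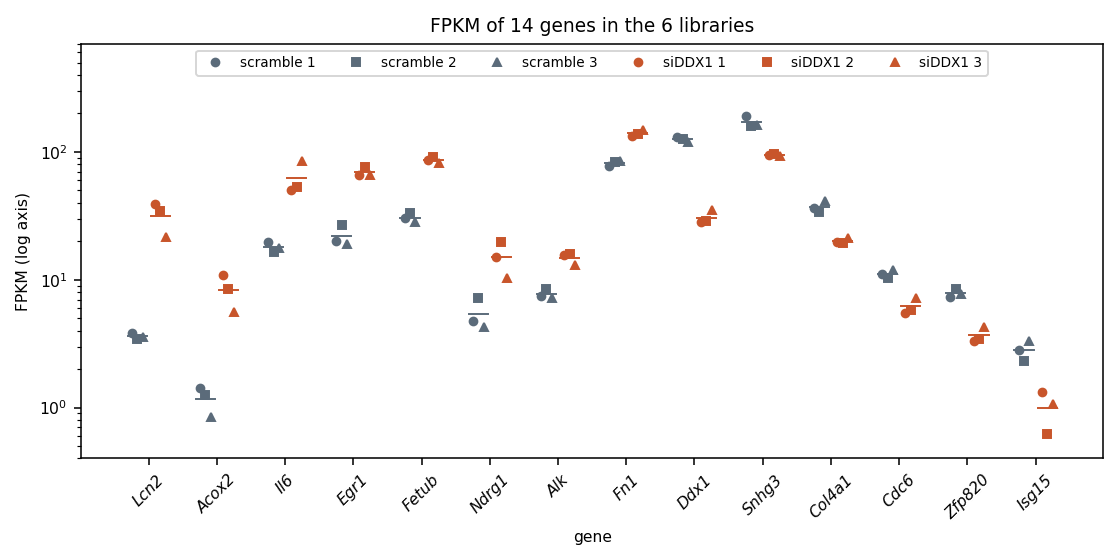
FPKM of 14 genes on a log axis in the 3 scramble (grey) and 3 siDDX1 libraries (orange), with a symbol per replicate number and a bar at each group mean. In every gene drawn the groups lie apart, and Lcn2 covers the widest distance, from at most 3.85 FPKM in scramble to at least 21.7 FPKM in siDDX1 libraries.

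Inflammatory signalling genes moved both ways, and the share that increased was near that of all genes. NF-kB is a family of transcription factors that inhibitors hold in the cytoplasm until a receptor signal releases them, and Lcn2, Il6 and Cxcl10 are among its known targets. Of 70 genes listed 45 were tested, with 3 increased (6.67%), 5 decreased (11.1%) and a median log2 fold change of -0.06. Of all genes 5.61% increased and 5.03% decreased. Among the factors, Nfkb1 fell from 9.83, 8.47 and 9.97 to 5.73, 5.76 and 7.51 FPKM, and Rela did not pass (log2 fold change -0.30, limma adjusted p = 0.0674). No kinase or inhibitor of 11 tested passed, and of 15 receptors and adaptors Tab2 fell (log2 fold change -0.37). Of 15 target genes tested out of 36 listed 3 increased and 3 decreased, and 11 had a positive change, with a median of 0.14 (0.19, 0.09 and 0.15 in siDDX1 replicates 1, 2 and 3). Beside Lcn2 and Il6, Ier3, an early response gene, rose from 35.7, 39.5 and 36.9 to 58.5, 57.4 and 48.1 FPKM. Cxcl10, a chemokine gene also induced by interferon, fell from 3.07, 2.85 and 3.09 to 0.604, 0.904 and 1.75 FPKM. Csf1, a macrophage growth factor, fell by 0.79 and Gadd45b, a stress sensor, fell by 0.56 on the log2 scale. Lcn2 and Il6 kept their calls without scramble replicate 1 and without scramble replicate 3, and no decreased NF-kB gene did. Without siDDX1 replicate 3, 5 NF-kB genes increased and 11 decreased, where 16.4% and 15.4% of all genes did.

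IL-6 signals through JAK kinases and STAT3. Of 15 tested genes of this pathway 2 increased and none decreased, with a median of 0.22 (7 increased and 2 decreased without siDDX1 replicate 3, none without scramble replicate 1). The risers were Myc, from 122, 119 and 127 to 168, 160.2 and 187 FPKM, and Junb, from 27.9, 31.5 and 31.9 to 39.4, 42.4 and 36.4 FPKM. All siDDX1 values were above all scramble values in both. Stat3 stood at 21.3, 21.0 and 18.7 FPKM in scramble and at 31.5, 29.0 and 22.3 FPKM in siDDX1 libraries, with a limma adjusted p of 0.0653.

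Immediate early genes are switched on within minutes of a growth or stress signal without new protein synthesis. Of 44 tested 9 increased (20.5%) and 2 decreased, with a median of 0.15. Egr1, a zinc finger factor, was at 20.0, 26.9 and 19.2 FPKM in scramble and at 66.4, 76.1 and 65.5 FPKM in siDDX1 libraries. Nab2, which encodes a corepressor of EGR factors and is one of their targets, was at 20.2, 22.6 and 18.0 FPKM against 46.8, 46.8 and 34.3 FPKM. Both lay well above scramble in every siDDX1 library, with log2 fold changes of 1.62 and 1.03 (limma adjusted p = 0.00180 and 0.00656). Btg2, an antiproliferative gene, rose by 0.75, Vgf, a secreted neuronal peptide precursor, by 0.58, and Arc, a synaptic gene, by 0.40 on the log2 scale. Among the phosphatases that switch off MAP kinases Dusp6 rose, from 59.2, 53.7 and 63.3 to 76.5, 80.9 and 111 FPKM. Dusp1 went the other way, from 8.63, 9.58 and 9.18 to 6.503, 5.67 and 5.82 FPKM, and Klf6 fell by 0.36. Without scramble replicate 1 the counts were 4 increased and 1 decreased, and without scramble replicate 3 they were 5 and 0. They were 17 and 5 without siDDX1 replicate 3.

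More genes of the interferon response decreased than increased. Sensors such as RIG-I and PKR recognise viral or misplaced RNA, and interferon then induces antiviral and antigen presentation genes. Of 67 genes listed 42 were tested, of which 7 decreased (16.7%) and 1 increased, with a median of -0.10. Isg15, a ubiquitin-like modifier and classical interferon target, was at 2.81, 2.30 and 3.31 FPKM in scramble and at 1.32, 0.616 and 1.06 FPKM in siDDX1 libraries. B2m, the light chain of MHC class I, was at 413, 411 and 409 FPKM against 313, 319 and 297 FPKM. Eif2ak2, which encodes PKR, was at 13.5, 13.0 and 13.1 FPKM against 8.13, 9.04 and 10.2 FPKM. In each of the 3 genes the groups lie apart, and the scramble values of B2m differ by less than 5 FPKM. Tapbp, a chaperone of MHC class I loading, fell by 0.41 and Ifngr2, a subunit of the interferon gamma receptor, by 0.33. Parp9 and Lgals3bp fell by 0.44 and 0.38. Ifitm3, a membrane protein that restricts virus entry, rose from 26.9, 23.1 and 24.2 to 47.2, 33.3 and 36.8 FPKM. The median of the list was -0.11, -0.10 and -0.13 in siDDX1 replicates 1, 2 and 3. No call on the list was kept without scramble replicate 1 or without scramble replicate 3. Without siDDX1 replicate 3, 10 decreased and 7 increased, where 15.4% and 16.4% of all genes did.

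**Figure D2:**
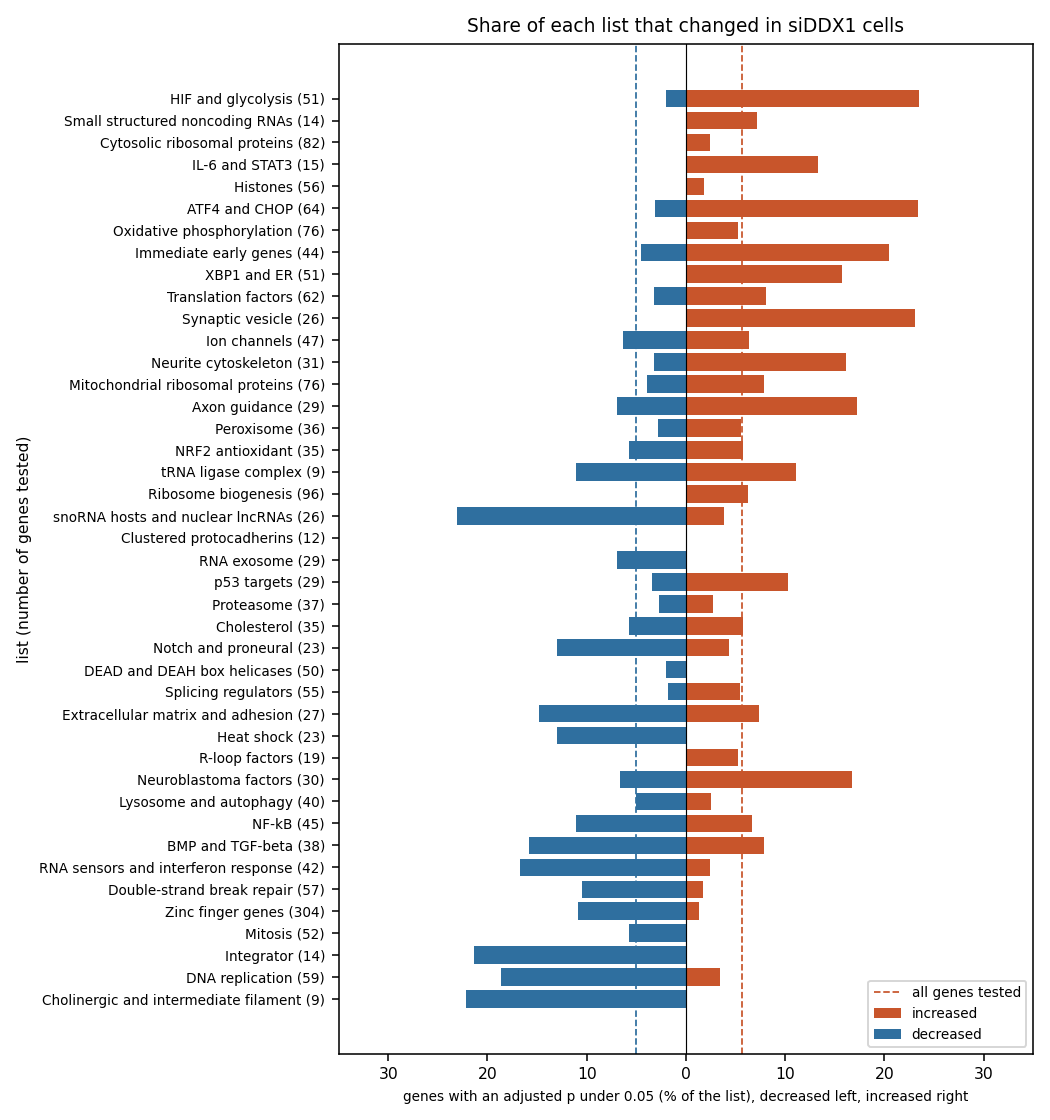
Share of each of 42 lists of genes with a limma adjusted p under 0.05, increased to the right and decreased to the left, in order of the list's median log2 fold change, with the number tested in brackets. Broken lines mark the share of all genes, 5.61% increased and 5.03% decreased. The bars of the HIF, ATF4 and synaptic vesicle lists reach furthest to the right, and those of the snoRNA host, cholinergic and Integrator lists furthest to the left.

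Most hypoxia and glycolysis genes had higher levels in siDDX1 cells, 45 of 51. Under low oxygen the prolyl hydroxylases that mark HIF factors for decay slow down, and HIF then induces glycolytic enzymes, glucose transporters and genes such as Vegfa. Of 55 genes listed 51 were tested, with 12 increased (23.5%), 1 decreased and a median of 0.42. Ndufa4l2, a mitochondrial protein induced in hypoxia, was at 2.74, 5.80 and 4.02 FPKM in scramble and at 12.4, 16.9 and 9.10 FPKM in siDDX1 libraries. Ndrg1, another known hypoxia gene, was at 4.72, 7.13 and 4.26 FPKM against 15.1, 19.6 and 10.4 FPKM. Car12, a carbonic anhydrase, was at 6.68, 9.63 and 7.47 FPKM against 13.9, 18.9 and 13.2 FPKM. In all 3 genes scramble replicate 2 was the highest control and siDDX1 replicate 2 the highest knockdown library. Vegfa, an angiogenic growth factor, rose from 103, 118 and 108 to 148, 173 and 153 FPKM, and Ero1l, an oxidase of the ER, from 124, 137 and 123.3 to 185, 237 and 196 FPKM. Fam162a, Ak4 and Ddit4 were the other hypoxia genes that rose, with log2 fold changes of 0.75, 0.58 and 0.53. Plod1, a collagen hydroxylase, fell by 0.42.

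Nearly all genes listed under glycolysis had a positive change, and few passed. The list holds the transporters Slc2a1, Slc2a3 and Slc16a3 and the kinase Pdk1 beside glycolytic enzymes. Of 22 tested 3 increased, 21 had a positive log2 fold change and the median was 0.43. Hk2, which commits glucose to the pathway, went from 56.5, 68.4 and 54.4 to 91.7, 107 and 73.3 FPKM. Pfkp, a phosphofructokinase, went from 67.4, 84.4 and 70.0 to 113, 128 and 96.8 FPKM. Pfkfb3, which makes its activator, rose by 0.42 on the log2 scale. Among 6 factors and oxygen sensors Egln1, a prolyl hydroxylase and itself a HIF target, rose by 0.56 and Hif1a did not pass (log2 fold change 0.14, limma adjusted p = 0.222).

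The size of this shift varied between libraries. The median of the 51 genes was 0.45, 0.67 and 0.10 above the scramble mean in siDDX1 replicates 1, 2 and 3. Among the controls scramble replicate 2 lay 0.29 above the mean of the other 2, higher than siDDX1 replicate 3 stands above all 3. Without siDDX1 replicate 3 the increased genes numbered 37, against 16.4% of all genes in that fit. Without scramble replicate 1 or without scramble replicate 3 none passed. The letters ACGTG or GCGTG, the core that HIF binds, stood on either strand in the 250 bases before a RefSeq start (GRCm38.p6) of 9 of the 10 increased genes with a promoter in the table. They stood there in 62.9% of the 8949 tested genes with a promoter, so a match is common.

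**Figure D3:**
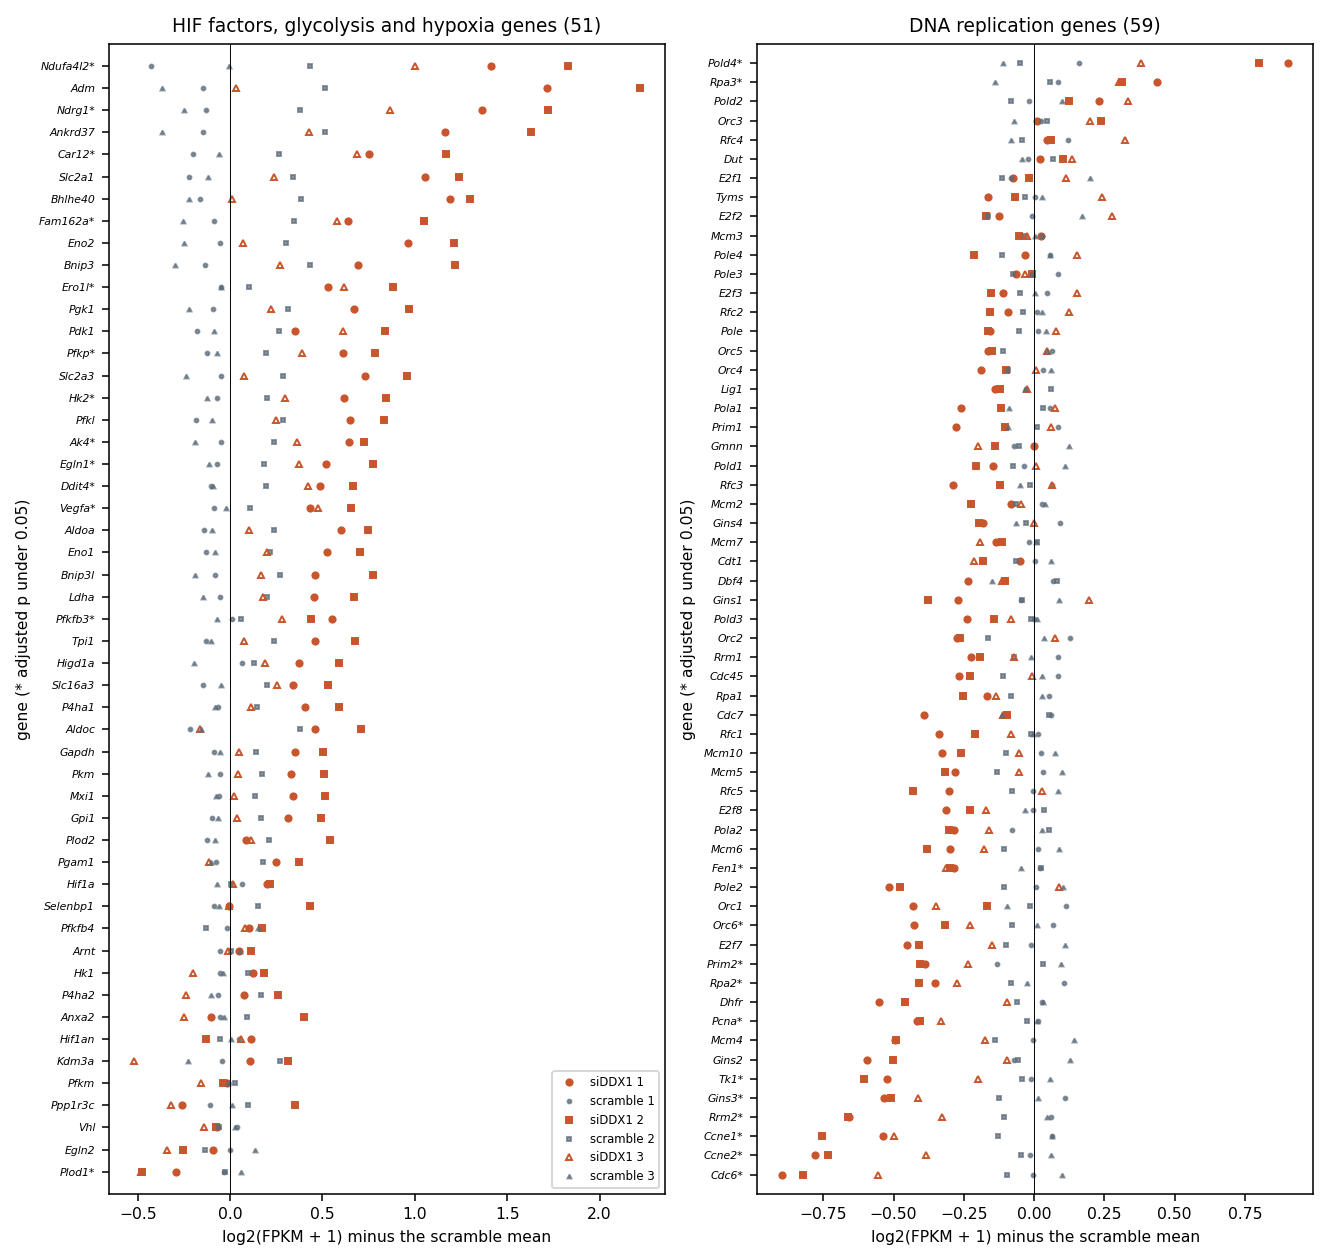
Difference of log2(FPKM + 1) from the scramble mean for each of 51 HIF and glycolysis genes and 59 DNA replication genes, by library (orange siDDX1, with replicate 3 as open triangles, and grey scramble), with an asterisk where the limma adjusted p was under 0.05. Genes are ordered by their mean difference, and the list medians of siDDX1 replicate 3 are 0.10 and -0.05, against 0.67 and -0.21 in replicate 2.

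The ATF4 arm of the stress response had a positive median in all 3 siDDX1 libraries. When eIF2 is phosphorylated, translation of most mRNAs slows while ATF4 is made, and ATF4 with CHOP (Ddit3) induces amino acid synthesis, amino acid import and aminoacyl-tRNA synthetases, the enzymes that charge tRNAs. Of 64 genes tested 15 increased (23.4%) and 2 decreased, with a median of 0.16. Above scramble without overlap lay 31 of the 64, where 17% of all genes did. The median was 0.14, 0.10 and 0.18 in siDDX1 replicates 1, 2 and 3, and between -0.04 and 0.05 for a scramble library against the other 2. Quantile normalization left 9 increased and a median of 0.10. Ddit3, the transcription factor CHOP, was at 410.2, 387 and 351 FPKM in scramble and at 665, 598 and 451 FPKM in siDDX1 libraries. Atf4 itself, which is regulated mostly at translation, was at 818, 783 and 767 FPKM against 811, 794 and 836 FPKM and did not pass (limma adjusted p = 0.742). Atf5, a related factor, rose by 0.27.

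Among enzymes Pycr1, which makes proline, was at 6.83, 6.63 and 7.21 FPKM in scramble and at 11.3, 11.8 and 9.96 FPKM in siDDX1 libraries. It was the member that kept its call in all 6 fits without 1 library (log2 difference 0.60, SE 0.0823, limma adjusted p = 0.00746). Asns, asparagine synthetase, was at 451, 464 and 435 FPKM against 598, 585 and 536 FPKM, and Cbs rose by 0.33. Fgf21, a secreted metabolic hormone, stood under 1 FPKM in every scramble library (0.813, 0.634 and 0.849) and at 1.74, 1.48 and 1.58 FPKM in siDDX1 libraries, so it was a member only through the group in which it was high. Of the transporters Slc1a5 rose by 0.31 and Slc3a2 by 0.26, while Slc38a2 fell by 0.30. Of 20 aminoacyl-tRNA synthetases 5 increased, none decreased, 17 had a positive change and 12 lay above scramble without overlap (17% of all genes did). Iars was at 104, 99.0 and 95.0 FPKM against 148, 136 and 127 FPKM, and Gars at 499, 488 and 461 FPKM against 632.1, 604.5 and 590.2 FPKM. Vars, Dars and Kars rose by 0.36, 0.31 and 0.24. Without scramble replicate 1 the whole list kept 2 increased genes, and without scramble replicate 3 it kept 1. Leaving out siDDX1 replicate 3 gave 28 increased and 7 decreased, where 16.4% and 15.4% of all genes did.

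The C/EBP-ATF response element, read here as TGATGNAA on either strand, was looked for in the 250 bases before each RefSeq start. It stood in a promoter of 4 of the 13 increased ATF4 and CHOP genes with an entry, against 2.39% of the 8949 tested genes with one. These counts include Fgf21, and the share is a description. These 4 are printed because they carry the letters through which ATF4 and CHOP are known to act. They are given 5′ to 3′ on the strand of the gene with coordinates of GRCm38.p6, and capitals mark the match or its reverse complement.
Asns, chr6:7693210-7693459, minus strand: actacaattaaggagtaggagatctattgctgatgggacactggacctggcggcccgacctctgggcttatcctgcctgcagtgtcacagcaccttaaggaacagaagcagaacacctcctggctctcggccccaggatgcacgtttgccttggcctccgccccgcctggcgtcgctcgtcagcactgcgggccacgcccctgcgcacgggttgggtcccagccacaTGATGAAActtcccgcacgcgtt
Pycr1, chr11:120643749-120643998, minus strand: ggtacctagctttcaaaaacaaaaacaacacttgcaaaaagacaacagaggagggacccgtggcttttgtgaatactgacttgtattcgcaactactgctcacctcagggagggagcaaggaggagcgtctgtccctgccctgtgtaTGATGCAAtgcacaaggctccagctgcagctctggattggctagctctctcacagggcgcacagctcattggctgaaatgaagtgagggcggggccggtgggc
Fgf21, chr7:45615491-45615740, minus strand: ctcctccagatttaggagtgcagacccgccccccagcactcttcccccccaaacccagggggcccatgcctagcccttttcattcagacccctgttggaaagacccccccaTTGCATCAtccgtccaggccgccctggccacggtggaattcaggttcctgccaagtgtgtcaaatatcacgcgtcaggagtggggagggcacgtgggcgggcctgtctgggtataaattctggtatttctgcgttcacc
Gars, chr6:55037751-55038000, plus strand: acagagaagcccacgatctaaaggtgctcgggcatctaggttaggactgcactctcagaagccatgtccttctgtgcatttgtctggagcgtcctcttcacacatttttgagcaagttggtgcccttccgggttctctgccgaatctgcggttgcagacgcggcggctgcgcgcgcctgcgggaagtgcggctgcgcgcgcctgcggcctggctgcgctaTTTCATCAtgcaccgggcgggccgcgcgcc
The match began 23 bases before the start in Asns, 103 in Pycr1, 139 in Fgf21 and 30 in Gars. A match of letters does not show that a factor was bound in these cells.

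The unfolded protein response has a second arm, in which IRE1 cuts the Xbp1 mRNA and the tRNA ligase joins it. FPKM per gene cannot tell the spliced from the unspliced mRNA. Of 51 XBP1 and ER genes tested 8 increased (15.7%) and none decreased, with a median of 0.14. A single gene increased without scramble replicate 1 or without scramble replicate 3, and without siDDX1 replicate 3, 25 increased and 2 decreased. In the last of these fits 16.4% of all genes increased and 15.4% decreased. Xbp1 was at 63.1, 60.2 and 58.6 FPKM in scramble and at 76.3, 77.1 and 82.3 FPKM in siDDX1 libraries, without overlap (log2 fold change 0.37, limma adjusted p = 0.0114). Sec24d, a coat protein of ER exit sites, was at 10.4, 9.88 and 10.3 FPKM against 15.2, 14.9 and 15.7 FPKM and kept its call in all 6 fits without 1 library. Creb3l2, Atf6, Edem2, Spcs2, Txndc5 and Ssr2 rose by 0.27 to 0.52. Hspa5, the chaperone BiP, was at 591, 599.9 and 471 FPKM against 884, 852 and 594 FPKM. Its siDDX1 replicate 3 lies within the scramble range, and the limma adjusted p was 0.0974. The 20 chaperones and foldases had medians of 0.32, 0.31 and -0.08 in siDDX1 replicates 1, 2 and 3. Heat shock genes, which answer misfolding in the cytosol, showed 3 decreased and none increased of 23 (7 decreased under quantile normalization). None decreased without scramble replicate 1 and 1 without scramble replicate 3, and 3 increased and 4 decreased without siDDX1 replicate 3. Cryab, a small chaperone, was the largest of these, from 20.2, 17.3 and 24.9 to 12.1, 11.8 and 11.4 FPKM.

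Ribosomal protein genes of the cytosol had a positive median while 2 of them passed. The cytosolic ribosome is built from one set of these proteins, and its genes are usually expressed in step. Of 82 tested 81 had a positive log2 fold change, with a median of 0.34, and 37 lay above scramble without overlap (17% of all genes did). Only Rpl26 and Rpl34 increased (2.44%, against 5.61% of all genes). Rpl34 was at 249.8, 214 and 217 FPKM in scramble and at 335, 303 and 292 FPKM in siDDX1 libraries. The family median was 0.49 and 0.44 in siDDX1 replicates 1 and 2 and 0.09 in replicate 3. Scramble replicate 3 lay 0.18 below the mean of the other 2 controls and scramble replicate 2 lay 0.14 above it, higher than siDDX1 replicate 3 above its controls. Without siDDX1 replicate 3 the number increased was 72. Many ribosomal protein genes have near-identical pseudogenes, so their counts are uncertain. The log2 fold changes of all genes correlated with GC content (r = 0.20, across 9937 genes, which are not independent) and with transcript length (r = -0.15). With this trend removed from each library, the family median was 0.24, and under quantile normalization it was 0.05.

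Other genes of translation and of mitochondria were described in the same way. Of 96 ribosome biogenesis genes 6 increased and none decreased, with a median of 0.05. Nle1, an assembly factor, had the largest change, from 11.5, 11.3 and 12.2 to 16.4, 14.8 and 14.9 FPKM, and no RNA polymerase I gene of 10 passed. Of 62 translation factors 5 increased and 2 decreased, with a median of 0.10. Quantile normalization brought that median to 0.01. Eif3d, a subunit of the initiation factor that recruits the small subunit, was at 335, 347 and 307 FPKM in scramble and at 461, 459 and 409 FPKM in siDDX1 libraries. Of 76 mitochondrial ribosomal protein genes 6 increased (7.89%) and 3 decreased (3.95%), near the shares of all genes, 5.61% and 5.03%. Mrps10 rose from 54.3, 55.9 and 56.7 to 81.6, 80.0 and 76.3 FPKM, whereas Mrpl18 fell from 105, 102 and 97.4 to 71.8, 76.1 and 75.8 FPKM, and both kept their calls in all 6 fits without 1 library. Of 76 genes of oxidative phosphorylation 4 increased and none decreased, with a median of 0.16 that became 0.06 once the trend with GC content and length was removed. Under quantile normalization 1 of them increased and 5 decreased, with a median of 0.04. No gene of oxidative phosphorylation, ribosome biogenesis or the translation factors passed without scramble replicate 1 or without scramble replicate 3. Leaving out siDDX1 replicate 3 instead gave 37 increased and none decreased for oxidative phosphorylation and 22 and 6 for translation factors. It gave 15 and 2 for ribosome biogenesis and 14 and 9 for mitochondrial ribosomal proteins. In that fit 16.4% of all genes increased and 15.4% decreased, so the increased shares of the last 2 lists were near that of all genes. Sdhb, a subunit of succinate dehydrogenase, was at 279, 278 and 280.5 FPKM against 326, 325 and 328 FPKM, with little spread in either group.

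**Figure D4:**
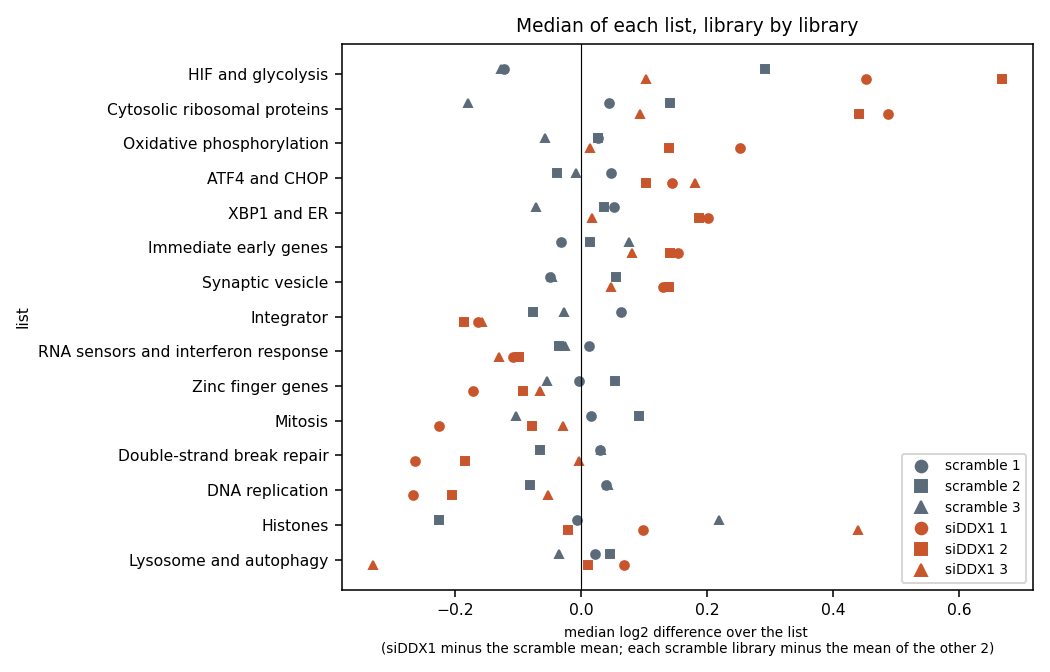
Median log2 difference of 15 lists in each library, with each siDDX1 library (orange) set against the scramble mean and each scramble library (grey) against the mean of the other 2. The ATF4, Integrator and interferon lists stand at similar values in all 3 siDDX1 libraries, whereas replicate 3 is within 0.02 of 0 for XBP1, oxidative phosphorylation and break repair and stands apart at 0.44 for histones and -0.33 for lysosome genes.

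Most DNA replication genes had lower levels in siDDX1 cells. Origins are licensed by ORC, CDC6 and the MCM helicase, cyclin E with its kinase starts S phase, and PCNA holds the polymerases on DNA. Of 59 genes tested 11 decreased (18.6%), 2 increased and 51 had a negative change, with a median of -0.15. Cdc6, a licensing factor, was at 11.1, 10.3 and 11.9 FPKM in scramble and at 5.50, 5.84 and 7.23 FPKM in siDDX1 libraries. It kept its call in all 6 fits without 1 library (log2 difference -0.76, SE 0.105, limma adjusted p = 0.00751). Ccne1, which encodes cyclin E1, was at 9.72, 8.39 and 9.74 FPKM against 6.08, 5.09 and 6.27 FPKM. Pcna was at 179, 175 and 179 FPKM against 133, 134 and 141 FPKM, and Rrm2, a subunit of ribonucleotide reductase, at 61.1, 54.3 and 60.5 FPKM against 36.8, 36.6 and 46.4 FPKM. SiDDX1 replicate 3 was the highest of its group in Cdc6, Ccne1, Pcna and Rrm2. Ccne2 fell by 0.63, but its end overlaps Ints8 on the other strand of chromosome 4 and their reads cannot be told apart. Tk1, Gins3, Rpa2, Orc6, Prim2 and Fen1 also fell, by 0.30 to 0.49. Pold4, a small polymerase subunit, and Rpa3 rose, by 0.70 and 0.35. The median was -0.27, -0.21 and -0.05 in siDDX1 replicates 1, 2 and 3, and scramble replicate 2 lay at -0.08 against the other 2 controls, lower than siDDX1 replicate 3. Cdc6 was the one decreased gene left without scramble replicate 1 and without scramble replicate 3. E2F letters (TTTCCCGC, TTTGGCGC, TTTCGCGC or TTTGCCGC) stood before a start of 2 of the 9 decreased genes with a promoter in the table, Cdc6 and Gins3, and of 4.21% of all such genes.

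Mitosis and break repair genes also had negative medians. Of 52 mitotic genes 3 decreased and none increased (5.77% decreased, against 5.03% of all genes), with a median of -0.13. That median was -0.23, -0.08 and -0.03 in siDDX1 replicates 1, 2 and 3, and scramble replicate 3 lay at -0.10 against the other 2 controls. Kif20a, a kinesin of cytokinesis, was at 30.5, 30.6 and 31.1 FPKM in scramble and at 22.2, 24.6 and 22.6 FPKM in siDDX1 libraries. Aurka, a spindle kinase, went from 51.4, 48.2 and 47.2 to 38.9, 38.1 and 39.7 FPKM, and Ccna2 fell by 0.29. Of 57 double-strand break repair genes 6 decreased (10.5%) and 1 increased, with a median of -0.11. Without siDDX1 replicate 3, 27 repair genes decreased and 2 increased, 14 mitotic genes decreased and 1 increased, and 29 replication genes decreased, against 15.4% decreased among all genes in that fit. Atm, the kinase that signals breaks, went from 13.4, 13.9 and 13.1 to 9.74, 10.6 and 10.2 FPKM. Lig4, the ligase of end joining, went from 12.9, 11.5 and 12.01 to 6.91, 7.21 and 9.94 FPKM, and Brca1, a recombination factor, from 25.6, 25.8 and 24.8 to 19.1, 20.8 and 20.9 FPKM. All siDDX1 values of these genes were below all scramble values. Rnf168, Dna2 and Fancb fell by 0.37, 0.43 and 0.44, and Xrcc6, which encodes Ku70, rose by 0.30. No call on either list was kept without scramble replicate 1 or without scramble replicate 3. Among p53 targets, which include Cdkn1a and Btg2, 3 of 29 increased and 1 decreased, with a median of 0.01. The counts were 6 and 5 without siDDX1 replicate 3, and 1 and 0 without scramble replicate 1 as without scramble replicate 3. Cdkn1a, the kinase inhibitor p21, rose from 41.2, 44.0 and 44.0 to 51.1, 53.6 and 48.6 FPKM. Of 56 replication-dependent histone genes Hist1h4i was the one that passed, and their median was 0.10, -0.02 and 0.44 in the siDDX1 libraries and from -0.23 to 0.22 in single scramble libraries against the other 2. In the fit without siDDX1 replicate 3, 4 histone genes increased and 9 decreased.

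The zinc finger genes were the list with the most genes tested. Most Zfp genes encode C2H2 zinc finger proteins, many with a KRAB domain that silences transposons, and they lie in clusters of related copies. Of 365 listed 304 were tested, with 33 decreased (10.9%), 4 increased and a median of -0.12. The median was -0.17, -0.09 and -0.07 in siDDX1 replicates 1, 2 and 3 and from -0.06 to 0.05 in single scramble libraries against the other 2. Below scramble without overlap lay 96 of the 304 genes, where 17.8% of all genes did. Zfp820 was at 7.28, 8.45 and 7.75 FPKM in scramble and at 3.30, 3.44 and 4.26 FPKM in siDDX1 libraries (log2 difference -0.92, SE 0.103, limma adjusted p = 0.00452). Zfp760 went from 7.46, 7.32 and 7.64 to 3.17, 3.14 and 4.91 FPKM, and Zfp950 from 14.7, 14.2 and 14.3 to 6.28, 7.17 and 9.43 FPKM. In each of these siDDX1 replicate 3 was the highest of its group.

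Chromosome 17 held the most of them. There 10 of 41 Zfp genes decreased, while 22 of the 468 other genes tested on that chromosome did (4.70%). Of the 10, 5 lay between 21672503 and 23330219 on mm9 (Zfp52, Zfp760, Zfp820, Zfp758 and Zfp40) and 3 between 56004469 and 56084597 (Zfp119a, Zfp959 and Zfp119b). Chromosome 7, with more Zfp genes, had 4 decreased of 77, and chromosome 13 none of 23. On chromosome 8 Zfp882, Zfp617 and Zfp961 fell, and the first 2 overlap on the same strand. Members of these clusters are alike in sequence and can share reads, so single values are uncertain. With the trend with GC content and length removed, 28 were decreased and 7 increased, with a median of -0.08, where 6.35% of all 9937 genes decreased and 6.69% increased. Without scramble replicate 1 the decreased genes numbered 2, and without scramble replicate 3 they numbered 4. In the fit without siDDX1 replicate 3, 82 decreased and 12 increased.

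**Figure D5:**
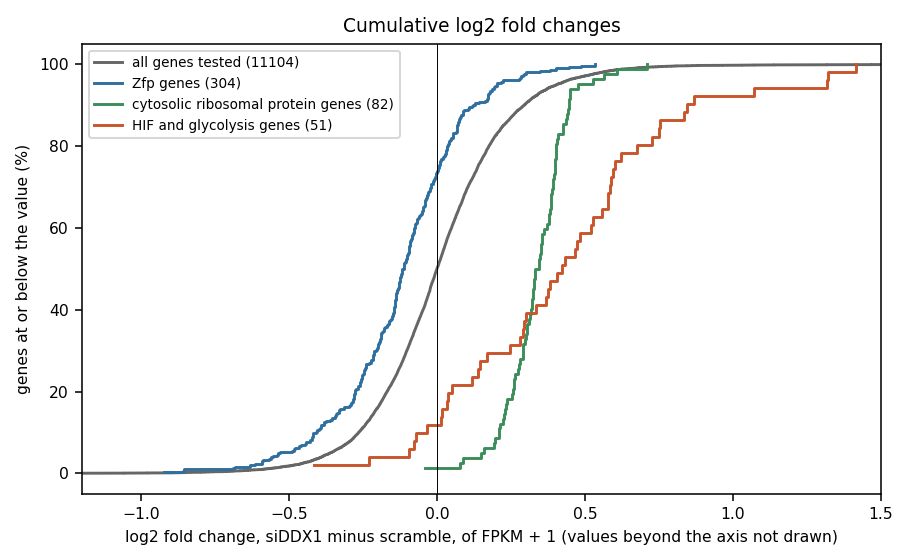
Cumulative share of genes at or below each log2 fold change, siDDX1 minus scramble, for all 11104 genes and for the Zfp, cytosolic ribosomal protein and HIF and glycolysis lists. The Zfp curve lies to the left of all genes over most of its length, with a median of -0.12, and the other lists lie to the right, with medians of 0.34 and 0.42.

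RNA processing genes related to the work of DDX1 were described next. Of 50 DEAD and DEAH box genes Ddx1 was the one that passed, and the median was -0.0014 (3 increased and 7 decreased without siDDX1 replicate 3). The RNA exosome, which degrades and trims RNA from its 3′ end, had 2 decreased and none increased among 29 subunits, nucleases and cofactors. No exosome gene passed without scramble replicate 1 or without scramble replicate 3, and 2 increased and 3 decreased without siDDX1 replicate 3. Exosc3 was at 45.4, 43.4 and 42.2 FPKM in scramble and at 41.8, 40.7 and 45.001 FPKM in siDDX1 libraries, which overlap. Zfc3h1, a scaffold that links the exosome to polyadenylated RNA, fell from 25.1, 25.3 and 26.98 to 11.5, 14.04 and 20.4 FPKM, and Exosc6 fell by 0.39. Of 19 R-loop factors Thoc6, a subunit of the THO export complex, rose from 10.96, 11.5 and 10.3 to 14.6, 14.5 and 14.04 FPKM, and none decreased (2 increased and 3 decreased without siDDX1 replicate 3, none without scramble replicate 1 or without scramble replicate 3). Integrator, which cuts nascent small nuclear RNAs and promoter-proximal transcripts, had 3 decreased and none increased of 14, and 12 of the 14 had a negative change (2 increased and 6 decreased without siDDX1 replicate 3). Ints3 went from 28.5, 27.3 and 29.5 to 23.9, 23.3 and 21.9 FPKM. Ints8 overlaps Ccne2 as stated, and Vwa9 fell by 0.37. The Integrator median was -0.16, -0.19 and -0.16 in siDDX1 replicates 1, 2 and 3, and no call on it was kept without scramble replicate 1 or without scramble replicate 3. Of 55 splicing regulators 3 increased and 1 decreased, none without scramble replicate 1 or without scramble replicate 3, and 6 and 13 without siDDX1 replicate 3. Of all genes 16.4% increased and 15.4% decreased without siDDX1 replicate 3. Celf4 and Elavl4, which encode neuronal RNA-binding proteins, rose by 0.76 and 0.58, Rbfox2 rose by 0.26 and Srsf3 fell by 0.35.

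Among noncoding transcripts were the snoRNA host genes. Their introns carry small nucleolar RNAs, and many of the spliced transcripts are short-lived. Of 16 tested 5 decreased (31.2%, against 5.03% of all genes) and none increased, while 9 had a positive change and the median was 0.01. Of these hosts 2 decreased without scramble replicate 1 or without scramble replicate 3, and 5 increased and 5 decreased without siDDX1 replicate 3. Snhg3 was at 190.3, 158 and 162 FPKM in scramble and at 94.0, 96.1 and 92.2 FPKM in siDDX1 libraries, and Snhg10 at 19.2, 15.7 and 14.4 FPKM against 9.71, 7.48 and 8.13 FPKM. Both groups lie apart in each, and both calls held in all 6 fits without 1 library (limma adjusted p = 0.00403 and 0.00751). Dancr, Snhg20 and Snhg4 fell by 0.46, 0.46 and 0.40. Among 10 nuclear and imprinted noncoding RNAs Tug1 fell from 45.3, 51.2 and 43.5 to 27.7, 31.2 and 29.1 FPKM and Pvt1, next to Myc, rose by 0.40. Of small structured noncoding RNA genes 14 of 1266 reached 1 FPKM, and Scarna13 rose from 1043, 1257 and 1004 to 1883, 1914 and 1639 FPKM. Snora78 and Snora81 are listed at 0 in 5 and 4 of the 6 libraries, so they are left without a fold change.

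Neuronal genes were grouped by function. Of 26 synaptic vesicle genes 6 increased (23.1%) and none decreased, with a median of 0.10. Syn2, a synapsin that tethers vesicles, was at 33.8, 38.9 and 33.3 FPKM in scramble and at 64.4, 66.5 and 48.0 FPKM in siDDX1 libraries. Cplx2, a complexin that clamps fusion, was at 9.52, 10.8 and 9.31 FPKM against 15.1, 15.5 and 16.0 FPKM. Syt4, Syt5, Napb and Rab3c rose by 0.51, 0.53, 0.44 and 0.35. Of 31 neurite cytoskeleton genes 5 increased and 1 decreased. Gap43, a growth cone protein, was at 83.5, 82.7 and 76.1 FPKM against 118, 118 and 108 FPKM, and Dpysl3 at 194, 198 and 195 FPKM against 263, 267 and 280.5 FPKM. Both kept their calls in all 6 fits without 1 library. Without scramble replicate 1 the synaptic vesicle and neurite lists each had 2 increased genes, and without scramble replicate 3 they had 1 and 2. Leaving out siDDX1 replicate 3 gave 9 and 13 increased and 1 and 2 decreased. Mapt, Map1b and L1cam rose by 0.74, 0.60 and 0.30, and Stmn3 fell by 0.28.

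Axon guidance genes had 5 increased and 2 decreased of 29 tested out of 74 listed. The counts were 1 and 0 without scramble replicate 1 as without scramble replicate 3. Plxna3, a semaphorin receptor, was at 6.36, 7.41 and 7.04 FPKM in scramble and at 12.2, 11.7 and 11.4 FPKM in siDDX1 libraries. Its relative Plxna1 went the other way, from 26.8, 25.5 and 29.6 to 20.2, 20.4 and 20.1 FPKM. Neither gene's groups overlap. Leaving out siDDX1 replicate 3 gave 9 increased and 5 decreased axon guidance genes, 6 and 6 neuroblastoma factors and 11 and 6 ion channel genes. Nrp2, Sema4d, Neo1 and Unc5b rose by 0.53, 0.52, 0.37 and 0.31, and Efna2 fell by 0.47. Of 30 neuroblastoma factors 5 increased and 2 decreased, and 2 and 0 did so without scramble replicate 1 as without scramble replicate 3. Alk, a receptor kinase and neuroblastoma oncogene, was at 7.40, 8.47 and 7.20 FPKM against 15.5, 15.9 and 13.1 FPKM (log2 difference 0.86, SE 0.0959, limma adjusted p = 0.00452). Scg2, a secretogranin, was at 105, 116 and 98.5 FPKM against 201, 222 and 163 FPKM. Ret, Chgb and Lmo1 rose by 0.34, 0.30 and 0.31, Tbx20 and Lin28b fell by 0.48 and 0.35, and Mycn did not pass (log2 fold change 0.38, limma adjusted p = 0.0679). Of 9 cholinergic and intermediate filament genes Ina and Chrnb2 fell by 0.45 and 0.41, and the median was -0.32 (6 decreased and 1 increased without siDDX1 replicate 3, none without scramble replicate 3). Of 47 ion channel genes 3 increased and 3 decreased, led by Kcnab1 (0.63) and Clcn5 (-0.46). Without scramble replicate 1 no ion channel gene increased and 1 decreased, and without scramble replicate 3 none passed. Of 12 clustered protocadherins none passed, where 1 increased without siDDX1 replicate 3.

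BMP and TGF-beta genes had 6 decreased (15.8%) and 3 increased of 38. These ligands signal through SMAD proteins, and the ID genes are direct BMP targets. Id4 was at 6.88, 6.96 and 8.32 FPKM in scramble and at 3.55, 3.32 and 3.71 FPKM in siDDX1 libraries, and Smad9, a BMP SMAD, at 6.78, 7.28 and 6.98 FPKM against 3.95, 4.19 and 3.51 FPKM. Bambi, a decoy receptor, fell from 3.51, 3.31 and 3.86 to 1.27, 1.30 and 2.05 FPKM. Id3, Fst and Smad7 fell by 0.51, 0.79 and 0.32. Tgfb2, a ligand, rose from 14.5, 14.8 and 14.5 to 22.9, 21.8 and 22.9 FPKM, and Ltbp4 and Tgif1 rose by 0.41 and 0.55. Id4, Smad9 and Tgfb2 kept their calls in all 6 fits without 1 library. When siDDX1 replicate 3 was left out 11 decreased and 5 increased, where 15.4% and 16.4% of all genes did. Of 23 Notch and proneural genes 3 decreased, Id4 and Id3 among them, and Rbpj, the DNA-binding partner of Notch, rose from 33.5, 32.7 and 32.2 to 42.5, 45.7 and 43.1 FPKM. On that list 4 increased and 5 decreased without siDDX1 replicate 3. Without scramble replicate 1 the counts were 1 and 1, and without scramble replicate 3 they were 0 and 1.

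Among 27 matrix and adhesion genes tested out of 87 listed, 2 increased and 4 decreased, and 1 and 1 did so without scramble replicate 1 as without scramble replicate 3, and 4 and 5 without siDDX1 replicate 3. Fn1, fibronectin, was at 78.1, 83.7 and 85.0 FPKM in scramble and at 133, 139 and 148 FPKM in siDDX1 libraries. Col4a1, a basement membrane collagen, was at 36.4, 33.9 and 41.0 FPKM against 19.8, 19.3 and 21.2 FPKM. These opposite changes had log2 fold changes of 0.76 and -0.85 (limma adjusted p = 0.00308 and 0.00403), and both held in all 6 fits without 1 library. Col4a2, which shares a divergent start with Col4a1, fell by 0.24, Itga8 and Itgav fell by 0.57 and 0.44, and Sparc rose by 0.29.

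The remaining lists had at most 2 calls in each direction. Leaving out siDDX1 replicate 3, the increased and decreased genes numbered 8 and 5 for cholesterol, 8 and 3 for peroxisome, 11 and 5 for NRF2, 7 and 5 for lysosome and 7 and 2 for proteasome. In that fit 16.4% of all genes increased and 15.4% decreased. On each of these lists at most 1 gene increased and none decreased without scramble replicate 1, as without scramble replicate 3. Of 35 cholesterol genes 2 increased and 2 decreased. The regulators Srebf2 (from 33.1, 33.3 and 36.9 to 51.2, 45.7 and 45.9 FPKM) and Srebf1 rose, and the synthesis enzymes Sc5d and Acat2 fell by 0.39 and 0.35. Of 36 peroxisome genes Acox2 and Pex6 rose and Pex13 fell, and no other oxidation gene of 18 passed. NRF2 targets had 2 increased and 2 decreased of 31. Hmox1, heme oxygenase, was at 122.7, 138 and 118 FPKM in scramble and at 262, 274 and 151 FPKM in siDDX1 libraries, and its call was lost in 5 of the 6 fits without 1 library, with limma adjusted p-values of up to 0.146. Of 40 lysosome and autophagy genes Wipi1 rose, from 26.1, 25.2 and 23.4 to 36.9, 36.5 and 32.9 FPKM, and Ctsa and Lamp1 fell by 0.56 and 0.39. Of 37 proteasome genes Psmd1 rose and Psmd5 fell, each by 0.38.

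The same genes in siEXOSC3 cells are given as values, because both knockdowns were set against the same scramble libraries and no comparison between them is independent. In siEXOSC3 cells the log2 difference from scramble was 0.92 for Lcn2, 0.54 for Acox2, 0.72 for Il6, 0.46 for Fetub and 0.30 for Nab2. It was 1.47 for Egr1, 1.67 for Ndufa4l2, 1.06 for Ndrg1 and 1.65 for Car12. For Ddx1, Hipk3, Myc, Gars and Syt4 it lay between -0.04 and 0.01. Isg15, Hrct1 and B2m stood at 0.19, 0.24 and -0.11, and Syn2 and Chgb at 1.54 and 1.56.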

How the data were processed

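RNA of 3 scramble and 3 siDDX1 libraries of N2A cells was analysed. The authors aligned reads to mm9 with TopHat2 version 2.1.0, ran Cuffdiff version 2.2.1 and deposited FPKM per gene and library in a table per knockdown, with versions and build taken from the submitters' processing notes. The gene annotation given to Cuffdiff is not given in the sources used here. Both tables hold the scramble libraries and were scaled separately, so tests stay within a table. Members, whose mean was 1 FPKM or more, were tested as log2(FPKM + 1) by limma version 3.58.1 under R version 4.3.3. The linear model held the group alone, variances were moderated along a trend with mean level, and two-sided p-values were adjusted by Benjamini-Hochberg at a threshold of 0.05. Models for counts do not apply to such values, and no counting interval is given. On simulated data with 11104 genes the fit called 182 of 200 genes changed by a log2 fold change of 1 (91%), 0 with the wrong sign, and 9 unchanged genes. The simulated noise was normal and independent between genes, without any shift shared by the genes of a library, and low genes were left unchanged. It therefore does not give the power or the error rate in the real libraries.

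The genes, the 43 lists and the tests were chosen with earlier results of these data known. Named were Ddx1 and its complex, the 15 largest rises and falls among genes past the threshold without overlap, and for each role of a list its first gene and up to 6 members past the threshold with the largest change, or all of a role with at most 6 tested. A gene may be on more than one list. Rela, Hspa5, Stat3, Mycn, Atf4, Hif1a and the genes at 0 were added after their values were seen wherever the rule did not name them. Symbols were matched to RefSeq (23120 by symbol and 1082 by synonym of 24318), and positions, GC content and length came from GENCODE vM1 on NCBIM37, the sequence of mm9. Promoters came from RefSeq on GRCm38.p6. Alternatives were a pseudocount of 0.1, no filter, a limit of 5 FPKM, quantile normalization, median centring, variances without a trend, a block for the replicate number, an adjusted p under 0.01 and leaving out each library. A smooth correction of each library for GC content and length (loess, span 0.3), and the counts per list without single libraries, were added after the data had been seen. Whether the number of a replicate pairs libraries was tested by the correlation of deviations from the group means. Figures were drawn with matplotlib version 3.10.9.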

Additional observations from a re-analysis of the deposited data

How the results depend on the processing

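Counts of changed genes depended on single libraries more than on the scale. With 623 increased and 559 decreased genes as reported, leaving out 1 library gave from 96 to 1818 increased and from 61 to 1709 decreased genes. The highest counts came without siDDX1 replicate 3 and the lowest increased and decreased counts without scramble replicate 3 and scramble replicate 1. Without a filter on low FPKM, when 16981 genes enter the adjustment, 387 increased and 330 decreased, and an adjusted p under 0.01 left 100 and 83. A pseudocount of 0.1, a limit of 5 FPKM, quantile normalization, median centring, no intensity trend and the removal of the GC and length trend kept both counts within 1.5 times. Median centring moved the share of increased genes among the calls from 52.7 to 62.0%. No named gene changed direction past the threshold under any of these alternatives. Of 219 named genes that passed, 45 did so in all 6 fits without 1 library and 60 passed at 0.01. Under each of the other alternatives in which they were tested 135 passed. Genes with a mean under 5 FPKM were not tested at that limit, nor genes without a coding transcript in the GC and length correction.

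Whether the replicate numbers pair the libraries stays undecided. No label ties a number to a shared day or batch, and deviations of same-numbered libraries correlated at -0.01, 0.38 and 0.37. With the replicate number as a block 1085 genes increased and 808 decreased, and 1163 of the 1182 genes were called in both fits. Of the named genes 1 lost its call under the block.

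The depth of the libraries is unknown, and the smallest p of an exact permutation test of 3 against 3 libraries is 0.1.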
